A study of Mus musculus with 6 samples.

Results

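Cathepsins are the proteases of the lysosome and cystatins are the proteins that block most of them. The 10 genes described here are 7 cysteine cathepsins (Ctsb, Ctsc, Ctsh, Ctsk, Ctsl, Ctss and Ctsz), the aspartic cathepsin Ctsd and 2 cystatins (Cst3 and Cstb). They were taken by name from the gene column of a table of 44519 rows, where 11 rows name them, and all 10 reached the minimum level for testing. They were measured by bulk RNA sequencing of horizontal basal cells, the reserve stem cells at the base of the olfactory epithelium, sorted from mouse olfactory neuroepithelium by their green fluorescence. Both groups carried the Krt17-EGFP reporter. The control group (3 libraries, replicates 1, 2 and 4) had no other transgene and is described as without doxycycline. The TNF group (3 libraries, replicates 1, 3 and 4) also carried Cyp2g1-rtTA and TRE-TNF, a pair by which doxycycline induces TNF (tumor necrosis factor) under a promoter of sustentacular cells, the supporting cells of the epithelium, and had 6 weeks of inflammation. The labels used here state neither age nor sex, nor how many animals went into a library. In every list of 3 values below, controls stand in the order of replicates 1, 2 and 4 and TNF libraries in the order 1, 3 and 4. Transgenes, doxycycline and inflammation differ together between the groups and cannot be told apart.

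Cathepsins are made as inactive precursors, are tagged with mannose 6-phosphate and are carried to the lysosome, where acid activates them. Besides general protein breakdown some have particular tasks. Cathepsin S trims the invariant chain of class II antigen molecules, cathepsin L does so in thymic epithelium, cathepsin C activates the serine proteases of leukocyte granules and cathepsin K degrades collagen in bone. Cystatin C, from Cst3, is secreted, whereas cystatin B, from Cstb, stays in the cytosol and nucleus and holds back cathepsins that leak out of lysosomes. Cathepsin D cuts through a pair of aspartates and is not a target of these cystatins.

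The cysteine cathepsins share the cysteine that attacks the peptide bond, and the coding stretch around it is shown because it is the part of each transcript that places the 7 genes in 1 family. Each line gives 27 bases of the coding strand from a GENCODE M21 transcript (GRCm38), 5′ to 3′, with the codon of that cysteine in capitals.
Ctsb: tcctgcggctctTGTtgggcatttggg
Ctsc: tcttgtggaagcTGCtactcatttgcc
Ctsh: gcctgtggcagcTGCtggactttctct
Ctsk: cagtgtggttccTGTtgggctttcagc
Ctsl: cagtgcgggtctTGTtgggcgtttagc
Ctss: tcttgtggtgccTGCtgggctttcagt
Ctsz: tactgtggttccTGCtgggcccacggc
The codon lies in exon 4 of 10 in Ctsb, where the stretch spans an exon junction, exon 6 of 7 in Ctsc, exon 6 of 12 in Ctsh, exon 5 of 8 in both Ctsk and Ctss, exon 6 of 9 in Ctsl and exon 2 of 6 in Ctsz. Cathepsin D and the cystatins hold no such stretch.

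Expression is given as FPKM (fragments per kilobase of transcript, scaled to the mapped fragments of a library), a level per length, so that genes can be compared with each other. Read numbers per library are not known. Judged by the steps between low values, 1 fragment was worth 0.874 to 1.08 times as much as in control replicate 1. FPKM summed to between 688190 and 838417 per library. Trp63, a defining gene of horizontal basal cells, lay between 68.6 and 86.1 FPKM without TNF and between 79.7 and 117 FPKM with it. The merged Krt14 and Krt17 row held 1768, 2265 and 402 FPKM in controls against 3645 to 5651 FPKM with TNF, and Krt5 held 150.5 to 344 FPKM against 402 to 1011 FPKM. Of the 7 rows of that list 2 rose, Itga6 and Itgb4, and 0 fell, beside 10.9% of all rows tested that rose and 27.2% that fell.

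Libraries differed in transcripts of other cells. The 16 macrophage markers, led by Lyz2 and C1qb, summed to 332, 374 and 1686 FPKM in controls and 583, 194 and 264 FPKM with TNF, so that control replicate 4 stood far above the rest. Of the macrophage sums Lyz2 alone held 158, 181 and 489 FPKM in controls and 487, 155 and 220 FPKM with TNF. TNF replicate 1 stood apart by its few stromal transcripts. The 8 fibroblast markers, led by Dcn and Col3a1, summed to 41.7 FPKM there, against 1095 and 1565 FPKM in the other TNF libraries and 141 to 528 FPKM in controls. For the 7 endothelial markers, led by the merged Egfl7 row and Pecam1, the sums were 3.04, 88.2 and 140 FPKM with TNF and 24.1 to 34.3 FPKM in controls. All 8 mature neuron markers, led by Stoml3 and S100a5, fell, as did all 4 immature neuron markers tested, led by Gap43 and Stmn2. Mature neuron sums still reached 919 FPKM in TNF replicate 1, against 43.0 and 35.5 FPKM in the other TNF libraries and 2645 to 5184 FPKM in controls. Of 6 sustentacular markers 3 fell and 0 rose, with Cyp2g1, whose promoter drives the transgene, going from 246, 256 and 332 FPKM to 26.5, 0.221 and 0.533 FPKM, while Cbr2 and Ugt2a1, the most abundant of that list, were not called. Of 2 dendritic cell markers tested, Zbtb46 and Ccr7, 1 fell, Ccr7. These marker counts stand beside 27.2% of all rows tested that fell and 10.9% that rose. In bulk samples such as these, fewer cells of a type and less RNA per cell cannot be told apart.

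The comparison asks how transcripts of the lysosomal proteases and their inhibitors differ in basal cells after prolonged inflammation. Cystatin B and cathepsin H rose in TNF libraries, and no member fell. Of the 10 genes tested 2 rose, 0 fell and 8 did not pass (limma on log2(FPKM + 1), Benjamini-Hochberg adjusted p below 0.05 over 15037 rows, n = 3 per group). At an unadjusted p below 0.05, 3 were higher and 0 lower. Of all rows 38.0% were called, 10.9% higher and 27.2% lower. The median log2 difference of the members was 0.53, beside −0.22 over all rows tested. The 3 TNF libraries lay above all 3 control libraries for 3 members, Cstb, Ctsh and Ctsd, against 16.8% of all rows, and below them for 0 members, against 36.2% of all rows (53.0% in either direction). With the members few and chosen with earlier results known, these shares are given as a description.

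**Figure D1:**
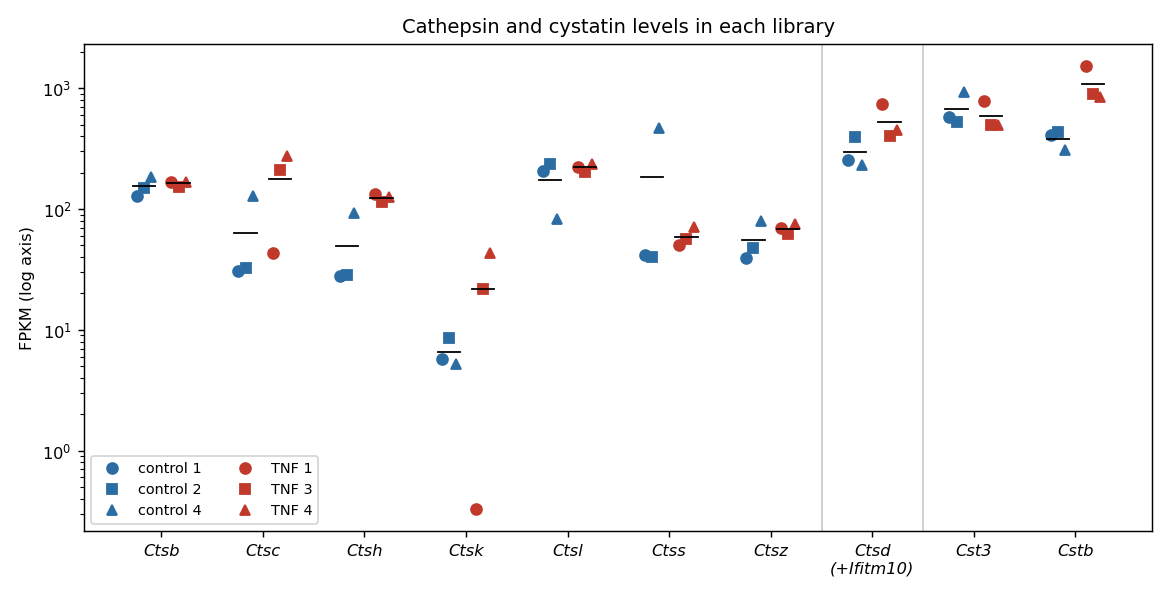
FPKM on a log axis for the 10 members by library, colored blue without and red with TNF, with a symbol per replicate and black lines marking the means. Red points are all above blue points for Cstb, Ctsh and Ctsd, Ctss is far higher in control replicate 4 (470 FPKM) than elsewhere, and Ctsk is lowest in TNF replicate 1 (0.327 FPKM).

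Cst3 and Cstb were the most abundant members. Over control libraries the mean levels ran from Cst3 (680 ± 222 FPKM, SD, n = 3) through Cstb (384 ± 64.7) and Ctsd (294 ± 88.3) to Ctss (184 ± 248), Ctsl (174 ± 80.6) and Ctsb (154 ± 28.0). Below these lay Ctsc (63.7 ± 55.2), Ctsz (55.3 ± 20.8), Ctsh (49.4 ± 36.8) and Ctsk (6.499 ± 1.82). Neighbours from Cstb down to Ctsb overlapped in their values, as did those from Ctsc to Ctsh. In TNF libraries the order ran from Cstb (1095 ± 374) through Cst3 (592 ± 163) and Ctsd (529 ± 181) to Ctsl (222 ± 16.5), Ctsc (177 ± 120), Ctsb (163 ± 9.88) and Ctsh (124 ± 9.55), with Ctsz (68.8 ± 6.51), Ctss (59.2 ± 10.5) and Ctsk (21.8 ± 21.6) last. There the values of Cst3 and Ctsd overlapped, as did those of Ctsz and Ctss. Those of Ctsc, only 43.0 FPKM in TNF replicate 1, overlapped with those of Ctsl, Ctsb, Ctsh, Ctsz, Ctss and Ctsk.

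Cstb (chromosome 10, 78425670 to 78427619, mm10) had 407, 433 and 311 FPKM in the 3 controls. The TNF libraries had 1525, 904 and 855 FPKM. The groups did not overlap, and every TNF library held far more than any control. The log2 difference was 1.47 ± 0.30 (SE, 95% interval 0.76 to 2.19, limma adjusted p = 0.00930, n = 3 per group), with an adjusted p between 0.00473 and 0.0474 when any 1 library was left out. Scaling to the horizontal basal cell markers ended the call (log2 difference 0.04 ± 0.50, adjusted p = 0.945), and those markers were themselves highest in TNF replicate 1, where Cstb was highest, and lowest in control replicate 4, where it was lowest. The summed markers ran from 686 to 3082 FPKM in control and from 4644 to 7268 FPKM in TNF libraries. Their part in the Cstb difference was not tested.

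Cst3 (chromosome 2, 148871722 to 148875692), the secreted inhibitor, had 582, 522 and 934 FPKM in the 3 controls. With TNF its values were 780, 499 and 498 FPKM. The groups overlapped and each held 1 high library, control replicate 4 and TNF replicate 1. The macrophage sum of each group was highest in the same library. The fitted log2 change came to −0.18 ± 0.32 (95% interval −0.95 to 0.58, limma adjusted p = 0.683). Together the 2 cystatins summed to 956 to 1245 FPKM in control and 1353 to 2305 FPKM in TNF libraries, so that the groups did not overlap, and Cstb was the more abundant of the pair in all 3 TNF libraries and Cst3 in all 3 control libraries.

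Ctsh (chromosome 9, 90054152 to 90076089) encodes an aminopeptidase that also processes surfactant protein in the lung. It had 28.0, 28.3 and 91.9 FPKM in the 3 controls. The TNF libraries had 133, 114 and 126 FPKM. The TNF libraries lay close together and above every control library, while control replicate 4 was 3.27 times the mean of the other controls. On the log2 scale TNF minus control was 1.54 ± 0.45 (95% interval 0.46 to 2.62, limma adjusted p = 0.0352, n = 3 per group). The call was lost without control replicate 1 or 2 (adjusted p = 0.132 and 0.115) and without TNF replicate 1, 3 or 4 (adjusted p = 0.0634, 0.0811 and 0.0872), with estimates of 1.26 to 1.60. Without control replicate 4 it was kept, with a difference of 2.097 and an adjusted p of 0.00354. Scaled to the horizontal basal cell markers the difference was 0.12 ± 0.70 (adjusted p = 0.883). Of 14 macrophage markers tested 10 fell and 0 rose, beside 27.2% of all rows called lower and 10.9% called higher. However, 4 of the 10 (Adgre1, Cx3cr1, Itgam and Mrc1) reached the minimum level in controls alone and could not have been called higher. The sum of all macrophage markers in TNF replicate 1 (583 FPKM) exceeded that of control replicates 1 and 2, but Lyz2 alone held 487 FPKM of it. The part of the macrophage markers in the Ctsh level of control replicate 4 was not tested.

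Ctsh profiles were nearest to those of Tcf7, Tpm2 and Alox5 among genes with a mean of at least 5 FPKM, measured as the distance between centred log2(FPKM + 1) values over the 6 libraries (0.62, 0.65 and 0.65). Tpm2, a tropomyosin, had 27.0, 31.5 and 65.5 FPKM without and 121, 96.9 and 160 FPKM with TNF. Alox5, the 5-lipoxygenase of leukotriene synthesis, had 3.06, 1.74 and 7.16 FPKM without and 13.4, 13.3 and 9.73 FPKM with TNF. Tcf7, a transcription factor of the Wnt pathway, was between 1.25 and 4.87 FPKM in control and between 6.85 and 8.43 FPKM in TNF libraries.

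**Figure D2:**
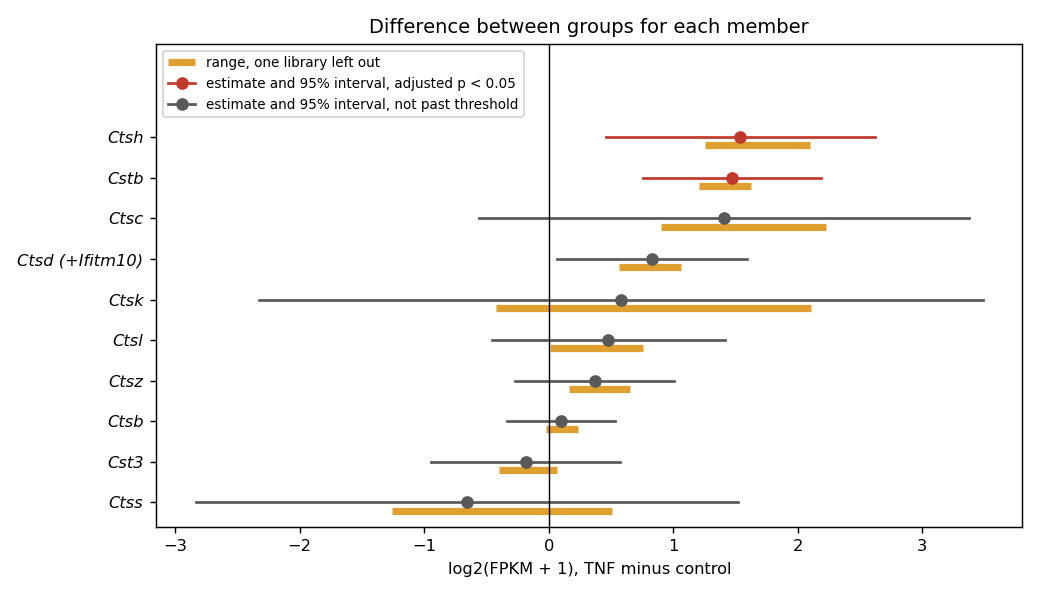
Difference in log2(FPKM + 1), TNF minus control, for each member, with the estimate as a point, its 95% interval as a thin line and the range of estimates with 1 library left out as a thick bar. Ctsh and Cstb, in red, passed the threshold, with estimates of 1.54 and 1.47, while the bars of Ctss, Ctsk, Cst3 and Ctsb cross 0.

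Ctsd was counted in a row merged with Ifitm10, a neighbouring gene of the interferon-induced transmembrane family, so its level is uncertain (chromosome 7, 142325837 to 142388038 for the row, of which GENCODE M21 gives 142375911 to 142388038 to Ctsd). The merged row had 254, 396 and 233 FPKM in the 3 controls. With TNF its values were 736, 400 and 451 FPKM. The groups did not overlap, though control replicate 2 and TNF replicate 3 nearly met. Its log2 difference came to 0.83 ± 0.32 (95% interval 0.07 to 1.60, limma adjusted p = 0.0836), and it passed after median-of-ratios scaling (1.08, adjusted p = 0.0352). A second row named Ctsd alone held only 4.57 to 10.5 FPKM in control and 4.57 to 20.8 FPKM in TNF libraries (log2 difference 0.30, adjusted p = 0.699).

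Ctss (chromosome 3, 95526786 to 95556403) had 41.9, 40.0 and 470 FPKM in the 3 controls. The TNF libraries had 50.6, 56.1 and 70.9 FPKM. The TNF libraries thus lay slightly above 2 controls and far below the third, which held 11.5 times the mean of the other 2. The log2 difference was −0.66 ± 0.91 (95% interval −2.84 to 1.52, limma adjusted p = 0.607). Without control replicate 4 it was 0.51 ± 0.19 (adjusted p = 0.111), and without control replicate 4 and TNF replicate 1 together it was 0.61 ± 0.14 (adjusted p = 0.0162). In control replicate 4 the macrophage markers C1qa, C1qb and C1qc, which encode the chains of complement C1q, were at 216, 348 and 268 FPKM, against 30.6 to 43.1 FPKM in the other controls and 2.84 to 13.7 FPKM in TNF libraries. The T and NK cell markers, led by Lck and Cd3g, summed to 71.8 FPKM in that library against 14.9 and 19.99 FPKM in the other controls, and to 6.00 to 8.85 FPKM with TNF. The B and plasma cell markers, led by Jchain (Igj in the table) and Cd79b, summed to 127 FPKM there against 26.1 and 33.3 FPKM in the other controls, and to 71.8, 52.5 and 37.8 FPKM with TNF. Jchain alone had 0.218, 0.0769 and 104.99 FPKM in controls and 67.4, 48.7 and 34.3 FPKM with TNF, whereas Cd79b, at 6.99 to 11.2 FPKM in controls and 1.61 to 2.57 FPKM with TNF, fell. The part of these cells in the Ctss level was not tested.

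The profiles nearest to Ctss were those of Wfdc17 and of the immunoglobulin segments Ighv8-8 and Ighv9-3 (distances 0.55, 0.97 and 1.01). Wfdc17 was at 72.3 FPKM in control replicate 4 and between 7.58 and 13.99 FPKM in the other 5 libraries. Both immunoglobulin segments were also highest in control replicate 4, at 23.9 and 23.3 FPKM, and below 3 FPKM elsewhere.

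Ctsc (chromosome 7, 88278085 to 88310888) had 30.9, 32.7 and 127 FPKM in the 3 controls. With TNF its values were 43.0, 212 and 275 FPKM. The groups overlapped, with control replicate 4 above TNF replicate 1. The fitted log2 change came to 1.41 ± 0.83 (95% interval −0.56 to 3.38, limma adjusted p = 0.225). Without TNF replicate 1 it passed, at 2.23 ± 0.63 (adjusted p = 0.0310), and without control replicate 4 and TNF replicate 1 together it was 2.89 ± 0.15 (adjusted p = 0.000146). In TNF replicates 3 and 4, where Ctsc was high, the fibroblast and endothelial sums were also high and the macrophage sum was low, and their part was not tested.

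Of 9 serine proteases that cathepsin C activates, 4 were listed at 0 in every library and 2 reached the minimum level for testing. Both reached it through the control libraries alone, so that only a lower value could be found and no test is given. Prtn3, the neutrophil proteinase 3 gene, had 13.3, 13.4 and 23.1 FPKM without and 0.851, 0.590 and 0.836 FPKM with TNF. Gzma, the granzyme A gene of cytotoxic lymphocytes, was between 2.15 and 5.13 FPKM in control and between 0.104 and 0.553 FPKM in TNF libraries. Of 6 neutrophil markers 2 were tested, S100a8 and S100a9, and both fell, by 2.59 and 2.94 on the log2 scale (limma). Over all rows 27.2% were called lower.

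Ctsk (chromosome 3, 95499256 to 95509362), which ends before Ctss begins on the same strand, was the least abundant member. It had 5.71, 8.58 and 5.21 FPKM in the 3 controls. The TNF libraries had 0.327, 21.6 and 43.5 FPKM. The control values lay between TNF replicate 1, the lowest of all, and the other 2 TNF libraries. On the log2 scale TNF minus control was 0.58 ± 1.22 (95% interval −2.33 to 3.49, limma adjusted p = 0.740). Without TNF replicate 1 it was 2.11 ± 0.35 and passed (adjusted p = 0.00557), and without TNF replicate 4 it was −0.43 (adjusted p = 0.813).

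Among TNF libraries Ctsk had the same order as the fibroblast and endothelial sums, which was not so among controls, where Ctsk was highest in replicate 2, the fibroblast sum in replicate 1 and the endothelial sum in replicate 4. Dcn, the decorin gene of fibroblasts, had 30.7, 512 and 791 FPKM with TNF, and Pdgfra had 0.143, 29.7 and 34.9 FPKM. The part of stromal cells in the Ctsk level was not tested. Of 8 fibroblast markers 6 were tested and 0 were called, and of 7 endothelial markers 6 were tested and 0 were called (limma). Over all rows 38.0% were called. At an unadjusted p below 0.05 there were 0 in both the fibroblast and the endothelial list. Of the osteoclast genes, Calcr, Ocstamp and Oscar were below 0.4 FPKM in every library and Dcstamp lay between 0.593 and 1.61 FPKM. Acp5, the tartrate-resistant phosphatase, had 6.33, 7.72 and 16.4 FPKM without and 5.38, 2.87 and 4.51 FPKM with TNF. Atp6v0d2 had 3.23, 5.23 and 3.12 FPKM without and 0.840, 2.34 and 2.22 FPKM with TNF. For both genes every TNF library lay below every control, though neither was called. The 8 genes summed to 26.3 to 56.8 FPKM in controls and 16.1, 47.5 and 53.5 FPKM with TNF. Of the 8 genes 5 were tested and 1 fell, beside 27.2% of all rows. It was Nfatc1, which had 13.1, 14.1 and 31.3 FPKM without and 7.44, 6.39 and 5.05 FPKM with TNF. Mmp9, a gelatinase of osteoclasts and other cells, had 2.48, 5.53 and 4.51 FPKM without and 1.14, 35.0 and 41.0 FPKM with TNF. It thus made up most of the summed level in TNF replicates 3 and 4.

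**Figure D3:**
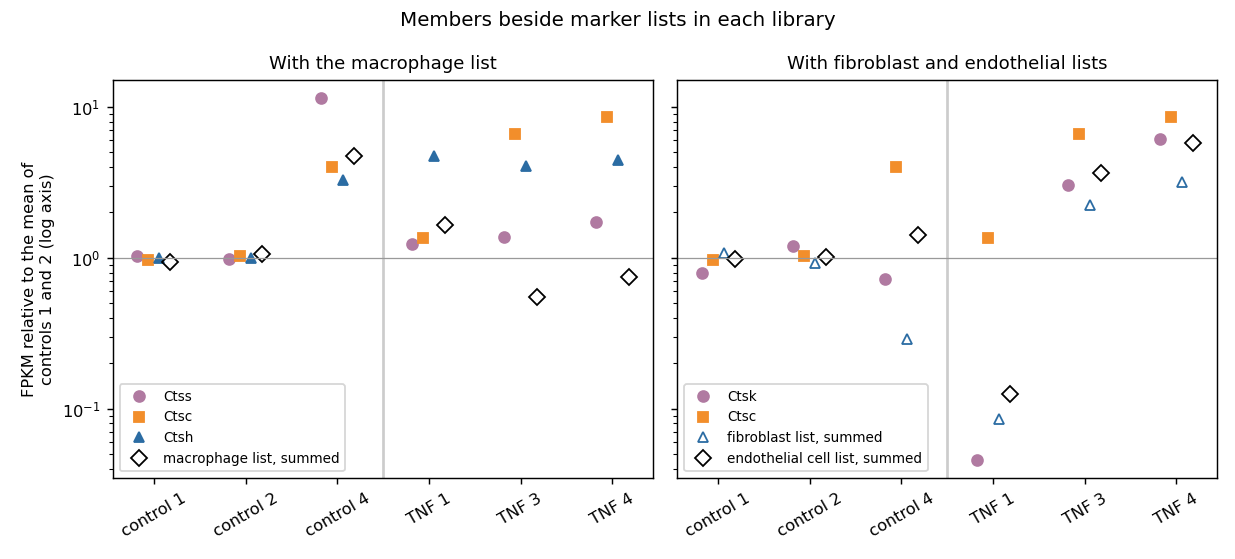
FPKM in each library divided by the mean of control replicates 1 and 2, on a log axis, for Ctss, Ctsc and Ctsh with the summed macrophage list (left) and for Ctsk and Ctsc with the summed fibroblast and endothelial lists (right), with filled symbols for members and open symbols for lists. Ctss stands at 11.5 and the macrophage list at 4.77 in control replicate 4, while in TNF replicate 1 Ctsk and both stromal lists are below 0.2.

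Ctsl, Ctsb and Ctsz varied little between TNF libraries, with coefficients of variation of 7.42%, 6.05% and 9.46%. Ctsl (chromosome 13, 64363214 to 64370306), an endopeptidase whose exons overlap those of Gm47123 and Gm49230, had 206, 234 and 82.5 FPKM in the 3 controls. With TNF its values were 225, 204 and 236 FPKM. Only control replicate 4, the library with the lowest sum of horizontal basal cell markers, was apart from the others. Its log2 difference came to 0.48 ± 0.39 (95% interval −0.46 to 1.41, limma adjusted p = 0.375).

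Ctsb (chromosome 14, 63122462 to 63177793, a locus at which the table also has a row for Fdft1, whose exons overlap) had 129, 149 and 185 FPKM without and 169, 152 and 169 FPKM with TNF. The TNF values lay within the control range, and the log2 difference was 0.10 ± 0.18 (95% interval −0.34 to 0.53, limma adjusted p = 0.713). Ctsz (chromosome 2, 174415804 to 174439039, a locus at which the table also has a row for Nelfcd, whose exons overlap), a carboxypeptidase, had 39.5, 47.4 and 78.9 FPKM without and 69.2, 62.1 and 75.1 FPKM with TNF. Control replicate 4 was again the highest library. The log2 difference was 0.37 ± 0.27 (95% interval −0.27 to 1.003, limma adjusted p = 0.319), and without control replicate 4 it was 0.65 ± 0.17 and passed (adjusted p = 0.0431).

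The makeup of the cysteine cathepsin transcripts followed from these levels. The 7 genes summed to 481, 540 and 1041 FPKM in controls and to 690, 821 and 995 FPKM with TNF, so that the groups overlapped. Ctsl made up 42.8% and 43.3% of the sum in control replicates 1 and 2 and 7.92% in control replicate 4, where Ctss made up 45.2%. With TNF Ctsl made up 32.6%, 24.8% and 23.8%. The share of Ctsc was 6.23% in TNF replicate 1, close to the 6.43% and 6.05% of control replicates 1 and 2, and 25.8% and 27.6% in TNF replicates 3 and 4. Ctsh made up 5.24% to 8.83% in control and 12.6% to 19.2% in TNF libraries. The ratio of cystatin to cysteine cathepsin FPKM was 2.06, 1.77 and 1.20 in controls and 3.34, 1.71 and 1.36 with TNF, and TNF replicate 1 alone lay outside the control range.

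**Figure D4:**
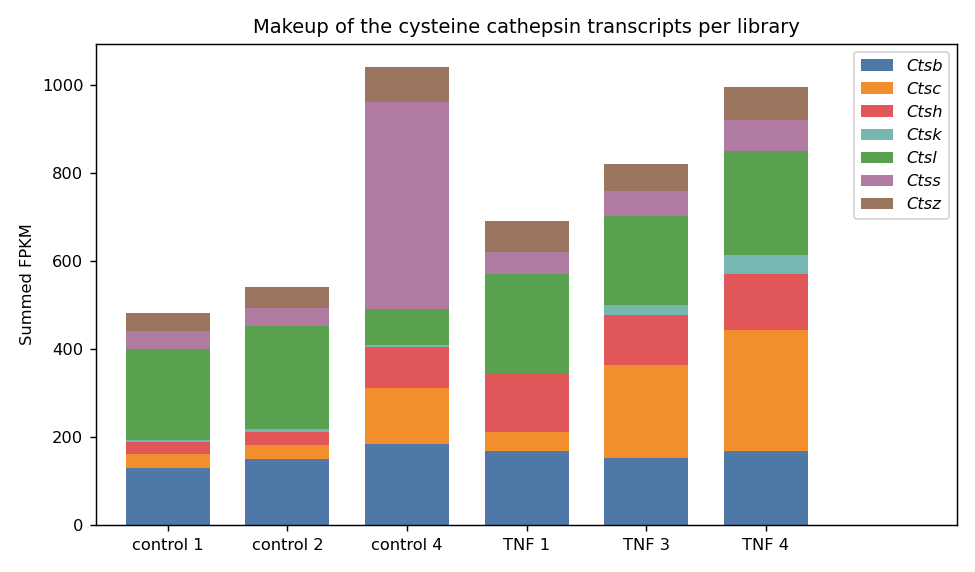
Stacked bars of FPKM of the 7 cysteine cathepsins in each library, on a linear axis from 0, with a color for each gene. Ctss fills 45.2% of the bar of control replicate 4, and Ctsc 25.8% and 27.6% of those of TNF replicates 3 and 4.

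With control replicate 4 and TNF replicate 1 both left out, 6 members were higher (Cstb, Ctsh, Ctsc, Ctsk, Ctss and Ctsz) and 0 lower (limma, 2 libraries per group, 12779 rows tested), against 19.8% of all rows called higher and 32.7% called lower in that fit. Without control replicate 4 alone the members higher were 3 (background 9.14%), and without TNF replicate 1 alone they were also 3 (background 13.7%). The 3 were Cstb, Ctsh and Ctsz in the first case and Cstb, Ctsc and Ctsk in the second. Scaling to the horizontal basal cell markers, which moved the median of all rows to −1.49, left 0 members higher (background 1.51%) and 2 lower, Ctsb and Cst3 (background 63.0%). After median-of-ratios scaling 3 members were higher (background 15.7%) and 0 lower (20.8%). With the replicate number as a term, a fit that rests on replicates 1 and 4 of each group, 0 members were higher (background 4.95%) and 0 lower (14.9%).

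Few other cathepsins and cystatins reached the minimum level. Of 17 other cathepsins and lysosomal peptidases 10 were listed at 0 in every library. Of the others 5 were tested and 0 were called (limma, with 1 at an unadjusted p below 0.05). Over all rows 38.0% were called, 10.9% higher and 27.2% lower. The most abundant, the carboxypeptidase Ctsa, had 82.3, 85.2 and 180 FPKM without and 122, 94.3 and 97.1 FPKM with TNF. Ctso had 18.7, 18.3 and 9.06 FPKM without and 20.7, 29.7 and 34.5 FPKM with TNF, without overlap (log2 difference 0.88 ± 0.33, limma adjusted p = 0.0767). Legumain, from Lgmn, which cleaves cathepsin precursors, had 55.7, 55.2 and 113 FPKM without and 93.8, 50.3 and 60.3 FPKM with TNF. Of 23 other members of the cystatin superfamily 5 were tested and 2 were called higher, beside 10.9% of all rows. The 2 were the kininogens Kng2 and Kng1, close paralogs between which the counting may split reads. Kng2 had 0.951, 1.68 and 1.36 FPKM without and 34.6, 10.8 and 9.04 FPKM with TNF (2.81 ± 0.49, adjusted p = 0.00496). Kng1 was at most 0.232 FPKM in control and at 7.55, 2.39 and 1.84 FPKM in TNF libraries, and it reached the minimum level through the TNF libraries alone, so that its call had 1 possible direction. Fetub, a fetuin, was the most abundant, at 104 to 170 FPKM in control and 79.8 to 293 FPKM in TNF libraries.

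Other lysosomal enzymes were called in both directions. Of 31 lysosomal hydrolases tested 5 rose and 3 fell, beside 10.9% of all rows called higher and 27.2% called lower. The share that fell was thus below that of all rows. Their median log2 difference was 0.32 beside −0.22 over all rows. After median-of-ratios scaling 10 were higher and 2 lower (15.7% and 20.8% of all rows). After scaling to the horizontal basal cell markers 0 were higher and 9 lower (1.51% and 63.0% of all rows). Gusb, the beta-glucuronidase gene, rose from 23.0, 30.7 and 23.2 FPKM to 92.4, 71.8 and 72.4 FPKM (1.59 ± 0.19, limma adjusted p = 0.00128). The merged Idua and Fgfrl1 row and Gaa, the acid alpha-glucosidase gene, rose by 1.06 ± 0.14 and 1.02 ± 0.19 (limma adjusted p = 0.00202 and 0.00625). The sialidase gene Neu1 fell from 33.4, 30.9 and 46.3 FPKM to 16.5, 9.66 and 12.1 FPKM (−1.47 ± 0.25, limma adjusted p = 0.00469). Psap, the precursor of the saposins and the most abundant of the list, was at 367 to 670 FPKM in control and 463 to 623 FPKM in TNF libraries (adjusted p = 0.696).

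Of 26 genes tested for the lysosomal membrane and the proton pump that acidifies it 3 rose and 5 fell, with a median of −0.39, beside 10.9% of all rows called higher and 27.2% called lower, so that the share that fell was below that of all rows. The counts were 4 higher and 3 lower after median-of-ratios scaling (15.7% and 20.8% of all rows). They were 0 and 20 after scaling to the horizontal basal cell markers (1.51% and 63.0% of all rows). With single libraries left out the number lower ran from 1 (without control replicate 1 or TNF replicate 3 or 4) to 11 (without TNF replicate 1). Of all rows 1609 of 13628 were lower without control replicate 1. Without TNF replicates 3 and 4 they were 2815 of 14685 and 2883 of 14653, and without TNF replicate 1 they were 4924 of 14727. All 5 that fell encode subunits of the vacuolar ATPase, namely Atp6v1h (−0.69 ± 0.14, limma adjusted p = 0.00884), Atp6v1b2 (−0.96 ± 0.20, adjusted p = 0.0112), Atp6v1d (−0.77 ± 0.16, adjusted p = 0.0113), Atp6v0d1 and Atp6v1g1. Mature neuron markers were also lower in TNF libraries, at 8 of 8 genes, and their part was not tested. Scarb2, which carries beta-glucocerebrosidase to the lysosome, rose from 12.1, 13.9 and 12.6 FPKM to 28.0, 32.3 and 33.6 FPKM (1.22 ± 0.16, limma adjusted p = 0.00178), and the tetraspanin gene Cd63 and the pump subunit gene Atp6v0e also rose. Laptm4a, the most abundant of the list, was at 386 to 904 FPKM in control and 899 to 977 FPKM in TNF libraries (adjusted p = 0.315).

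Of 9 genes of lysosomal sorting and its regulation tested, 1 rose and 2 fell. Of all rows 10.9% were called higher and 27.2% lower, so that the shares of this list were near those of all rows. Gnptab, which builds the mannose 6-phosphate tag, had 15.6, 16.7 and 9.49 FPKM without and 19.6, 38.2 and 39.5 FPKM with TNF (1.14 ± 0.34, limma adjusted p = 0.0363). Its partner subunit gene Gnptg fell by 0.66 ± 0.19 on the log2 scale, and the sorting receptor gene Sort1 fell from 12.2, 10.3 and 9.47 FPKM to 4.36, 4.48 and 4.83 FPKM (−1.06 ± 0.19, adjusted p = 0.00573). M6pr, the small mannose 6-phosphate receptor and the most abundant of the list, was at 79.4 to 99.1 FPKM in control and 89.1 to 117 FPKM in TNF libraries. Tfeb, the transcription factor that drives lysosomal genes, had 8.42, 10.9 and 10.2 FPKM without and 17.9, 10.99 and 12.04 FPKM with TNF (0.42 ± 0.24, adjusted p = 0.213).

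Most genes tested of the class II pathway, in which Ctss acts, rose, whereas Ctss itself was not called. Of 10 rows tested 7 rose and 1 was called lower, beside 10.9% and 27.2% of all rows, with a median log2 difference of 1.91. The 7 became 2 without control replicate 1 or 2, 3 without any 1 of the TNF libraries and 7 without control replicate 4. Of all rows 866 of 13628, 1294 of 13641 and 1246 of 13632 were higher without control replicates 1, 2 and 4. Without TNF replicates 1, 3 and 4 they were 2016 of 14727, 795 of 14685 and 880 of 14653. Scaling to the horizontal basal cell markers left 0 higher and 1 lower, beside 1.51% and 63.0% of all rows. The merged H2-DMb1 and H2-DMb2 row rose from 30.04, 46.6 and 69.0 FPKM to 240, 204 and 196 FPKM (2.19 ± 0.30, limma adjusted p = 0.00207). Ciita, the master activator of class II genes, had 1.24, 3.65 and 1.47 FPKM without and 8.04, 9.62 and 9.18 FPKM with TNF (1.75 ± 0.31, adjusted p = 0.00566). H2-DMa rose by 1.23 ± 0.29, while H2-Oa and Ifi30 were not called. H2-Ob, the 1 gene called lower, was at 1.01 to 1.94 FPKM in controls and 0.313 to 0.397 FPKM with TNF, and so reached the minimum level through the controls alone. Cd74, the invariant chain that cathepsin S trims and the most abundant of the list, had 452, 1032 and 3342 FPKM without and 6440, 5457 and 4810 FPKM with TNF (2.25 ± 0.73, adjusted p = 0.0484). Among controls both Cd74 and Ctss were highest in replicate 4, but in TNF libraries Cd74 exceeded that level while Ctss lay between 50.6 and 70.9 FPKM.

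**Figure D5:**
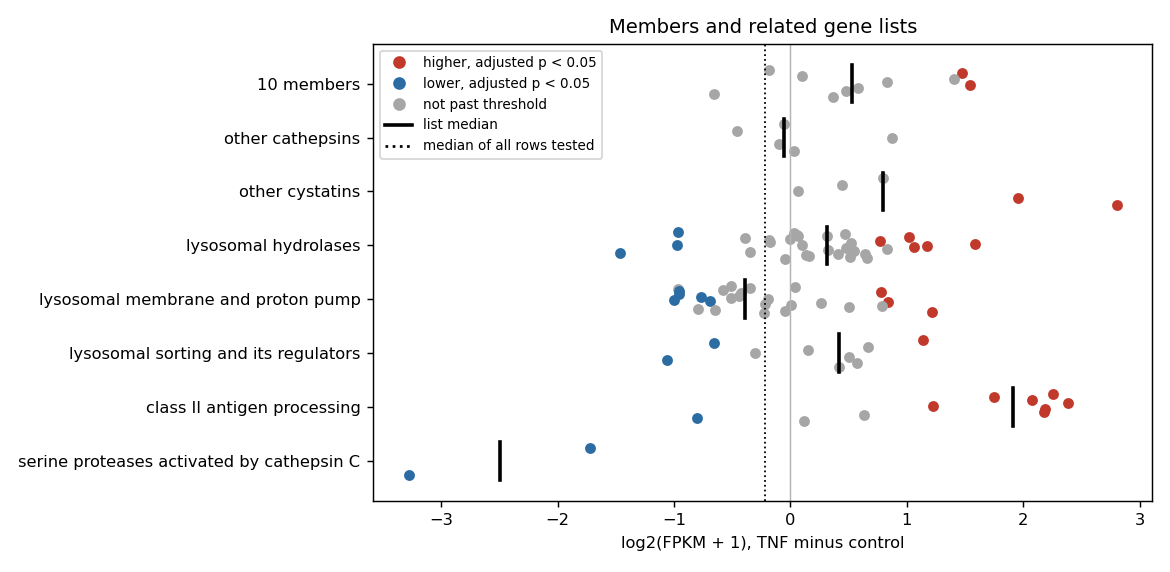
Difference in log2(FPKM + 1), TNF minus control, for each tested row of the members and 7 related lists, with rows that passed the threshold in red (higher) or blue (lower), a black bar at each list median and a dotted line at the median of all rows tested (−0.22). Class II genes lie to the right with a median of 1.91, the members have a median of 0.53 and the 5 lysosomal membrane genes that fell are pump subunits. Prtn3, Gzma, H2-Ob and Kng1 reached the minimum level in 1 group only.

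Promoter sequences were in the RefSeq table (GRCm38.p6) for 7 members, namely Ctsc, Ctsd, Ctsk, Ctsl, Ctss, Ctsz and Cst3. The table had no entry for Ctsb, Ctsh or Cstb. Windows of 250 bases before to 50 bases after the start were searched on both strands, and 4 motifs are given here. CACGTG, the core of the element that Tfeb reads at lysosomal genes, was found in 2 of 7 members against 7.17% of 32544 promoters. The motif of interferon regulatory factors, GAAA, 2 bases of any kind and GAAA, was found in 1 of 7 against 3.45%. A loose form of the NF-kB site, GGG, 5 bases of any kind and CC, whose matches can overlap each other, was found in 3 of 7 (Ctsz, Ctsd and Cst3) against 51.0%. TGANTCA, read by AP-1, was found in 0 of 7 against 7.79%. The stretches with the first 2 motifs are shown because these motifs are uncommon among all promoters and belong to the lysosomal and interferon programs, with the motif in capitals and the strand of the gene read 5′ to 3′.
Ctss, chr3:95526745-95526785, plus strand, interferon regulatory factor motif: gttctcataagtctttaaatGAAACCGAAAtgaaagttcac
Ctsd, chr7:142387900-142387945, minus strand, CACGTG: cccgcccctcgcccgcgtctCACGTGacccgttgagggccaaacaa
Ctsd, chr7:142388047-142388077, minus strand, CACGTG: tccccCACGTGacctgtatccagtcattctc
Ctsl, chr13:64370731-64370770, minus strand, CACGTG: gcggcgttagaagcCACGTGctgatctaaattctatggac
Counted from the RefSeq start, the motif of Ctss began 21 bases before it, those of Ctsd 98 and 245 and that of Ctsl 236. GENCODE M21 starts the minus-strand genes Ctsd and Ctsl further upstream, at 142388038 and 64370890. By that annotation the Ctsd stretch at 98 bases and the Ctsl stretch lie inside the gene. These matches describe the sequence and do not show that a factor binds there.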

How the data were processed

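Bulk RNA was sequenced in 6 libraries. Per the labels' protocols, sorted cells gave RNA of a RIN above 7, from 5 ng of which SMARTer cDNA and Nextera libraries were prepared. The submitters' processing notes list FastQC 0.10.1, bcl2fastq, Cuffdiff 2.2.1, TopHat2 2.1.1 and mm10, with no role for each. The authors deposited 1 table of FPKM values, although its title also speaks of raw counts, and 99.98% of values above 0 were not whole, so no count model was used. The sources used here do not give the handling of strand. Nothing says that libraries came from separate animals, so each p-value reflects spread between samples that may be technical.

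A row was tested if 3 libraries or more reached 1 FPKM, and was fitted with limma 3.58.1 in R 4.3.3 on log2(FPKM + 1), a pseudocount of 1, with an intensity trend and the 2 groups as the only term. Such log2 differences understate changes of low genes. Benjamini-Hochberg adjustment ran over all rows, with a threshold of 0.05. The procedure was tested on simulated data. A symbol named by several rows was read from the one with the highest mean. Of 218 list entries 212 matched by symbol and 4 by an older name. Members, lists and tests were chosen with earlier results of these data known. Named genes are all members, up to 4 called genes with the smallest p and the most abundant gene of each pathway list, the 2 most abundant of each marker list and the nearest profiles. Trp63, Itga6, Itgb4, Cyp2g1, Acp5, Dcstamp, Atp6v0d2, H2-Oa, Ifi30, Adgre1, Cx3cr1, Itgam, Mrc1, C1qa, C1qc, Pdgfra, Calcr, Ocstamp, Oscar, Ctso, Lgmn, Cd63, Atp6v0e, Atp6v0d1, Atp6v1g1 and Tfeb were picked from the lists after their values were seen. Row positions are those of the table, counted from 1. Coding stretches were read from the longest open reading frame of GENCODE M21 transcripts with Biopython 1.88. A further promoter motif that was searched is not reported here.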

Additional observations from a re-analysis of the deposited data

How the results depend on the processing

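Groups of 3 limit the precision, and read depth is unknown. Of 160 member values under 16 alternatives, 129 kept their direction and their side of the threshold. With the same sign 11 lost the call and 8 gained one, and 12 changed sign. Of the 12, Ctsb scaled to the horizontal basal cell markers also gained a call (limma adjusted p = 0.0458). So did Ctss without control replicate 4 and TNF replicate 1 together (limma adjusted p = 0.0162). The members higher were 2 as reported, 1 without the filter, 1 at an adjusted p below 0.01, 0 after scaling to the horizontal basal cell markers, 6 without control replicate 4 and TNF replicate 1 together, and 1 to 3 with single libraries left out. The members lower were 0 in all of these except 2 after scaling to the horizontal basal cell markers. That scaling reversed Ctsb (−1.33), Ctsc (−0.0076), Ctsd (−0.60), Ctsk (−0.51), Ctsl (−0.95) and Ctsz (−1.05) on the log2 scale, median-of-ratios scaling reversed Cst3 (0.062), and leaving out control replicate 4 and TNF replicate 1 reversed Ctss (0.61). With single libraries left out the estimates ran from −0.40 to 0.068 for Cst3, −0.024 to 0.23 for Ctsb, −0.43 to 2.11 for Ctsk and −1.26 to 0.51 for Ctss. The cause of these reversals was not tested. The median of all rows was −0.22 as deposited, 0.01 after median-of-ratios scaling, 0.05 after quantile normalization and −1.49 after scaling to the horizontal basal cell markers, with 1635 rows higher and 4083 lower as deposited, 2353 and 3110, 2658 and 2867, and 231 and 9635, in that order. At an adjusted p below 0.01 they were 787 and 2504, with single libraries left out 795 to 2016 and 1609 to 4924, and with control replicate 4 and TNF replicate 1 both out 2529 and 4179.

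Control and TNF libraries share the replicate numbers 1 and 4, and same-numbered libraries did not deviate together (correlations of −0.064 and −0.087 across genes), so the numbers were not taken as pairs. Numbers 2 and 3 occur in 1 group each. A fit with the replicate number as a block thus drew its differences from replicates 1 and 4 alone, including control replicate 4 and TNF replicate 1. In that fit 0 members were higher and 0 lower, with Cstb at 1.68 (limma adjusted p = 0.0518) and Ctsh at 1.33 (adjusted p = 0.0874). Of all rows 744 were higher and 2246 lower.

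Of 224 counts for the related lists 88 moved, by over 1.5 times or to or from 0, which includes steps of a single gene. The numbers of all rows called, given above, moved as well. Over all alternatives the genes higher ran from 0 to 14 for hydrolases (5 as reported), 0 to 4 for membrane and pump genes (3), 0 to 3 for sorting (1), 0 to 8 for class II (7), 1 to 3 for other cystatins (2) and 0 to 1 for other cathepsins (0). The genes lower ran from 0 to 9 for hydrolases (3), 0 to 20 for membrane and pump genes (5) and 0 to 3 for sorting (2). For class II they ran from 0 to 1 (1), for other cystatins from 0 to 2 (0) and for other cathepsins from 0 to 4 (0). For serine proteases they ran from 0 to 2 (2, both of which reached the minimum level in controls alone). The 14 hydrolases and 8 class II genes came without control replicate 4 and TNF replicate 1 together, with 19.8% of all rows higher. The 9 hydrolases, 20 membrane and pump genes and 4 other cathepsins lower came after scaling to the horizontal basal cell markers. There 63.0% of all rows were lower.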
